A study of Mus musculus with 20 samples.

Results

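The 10 genes examined here belong to the glutathione S-transferase family and were measured in mouse heart ventricle: Gstm1, Gstm2, Gstm3, Gstm5 and Gstm6 of the mu class, Gsta4 of the alpha class, Gstp1 of the pi class, Gstt1 of the theta class, Gstz1 of the zeta class and the microsomal gene Mgst1. All probe sets linked to 1 of these genes alone were taken, 17 of the 12488 probe sets of the array, and each was kept apart because the 4 probe sets of Gstm5 gave different readings. Gstm5 was chosen by its measured intensities on these arrays, high in tTA hearts and lower in tTA hearts with Doxy, and the other genes as its family. Its values in those comparisons are therefore a description and carry no test. Of the 17 probe sets, 15 were bright enough to be tested, and they stand for 9 of the 10 genes. The probe sets 104636_at of Gstm6 and 93026_at of Mgst1 were too dim.

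The study asked how hearts differ when they make tTA, the tetracycline transactivator. RNA of cardiac ventricle was hybridised to Affymetrix arrays, and 19 arrays fell into 4 groups by their titles. FVBN control, taken as wild-type mice, had 2 arrays, FVBN + Doxy had 4, tTA had 8 and tTA + Doxy had 5. In the labels' keywords the tTA transgene is tied to the alpha MHC promoter, which in the heart is active in cardiomyocytes, so other cells of the ventricle may not carry the protein. Doxy is taken as doxycycline, a tetracycline antibiotic that keeps tTA off its operator sequences. All groups share the strain name FVBN in the labels. Ages, doses, times on Doxy and the number of transgenic lines are not given in the labels. Nor do the labels state that arrays came from separate animals, so the spread behind each p-value is that between arrays and may be technical. Array numbers are those of the labels, which do not say what they stand for. No stretch of them holds both genotypes or both treatments, so any cohort behind them cannot be told apart from genotype or from Doxy. The tTA arrays run from 7288 to 7311 and again from 9310 to 9322, with the other groups in between. A fit without 9310 and 9322 was therefore also run.

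Glutathione S-transferases join the thiol of glutathione to reactive electrophiles, such as products of lipid peroxidation, which are then exported from the cell. The cytosolic enzymes are dimers named by class, and the genes of the mu class lie side by side in the genome. Many are known targets of the transcription factor Nrf2, which binds antioxidant response elements in their promoters under oxidative or electrophilic stress.

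Promoters of Gstm5 and of its neighbours Gstm1, Gstm2 and Gstm3 are shown because these genes lie on 1 chromosome while only probe sets of Gstm5, among the tested members, read several-fold higher in tTA hearts. A second window of Gstm1 and the windows of Gstm6 held none of the motifs searched and are not printed. Each sequence is the 250 bases before the gene's start, 5′ to 3′ on the gene's own strand, from RefSeq on GRCm38.p6, and 9 of the 10 genes had an entry. Capitals mark matches, on either strand, to the antioxidant response element core TGACNNNGC, the AP-1 site TGACTCA, the TATA box TATAAA and the GC box GGGCGG. The windows are chr3:107895604-107895853 on the plus strand for Gstm5, and chr3:108017819-108018068, chr3:107986421-107986670 and chr3:107969175-107969424 on the minus strand for Gstm1, Gstm2 and Gstm3.
Gstm5: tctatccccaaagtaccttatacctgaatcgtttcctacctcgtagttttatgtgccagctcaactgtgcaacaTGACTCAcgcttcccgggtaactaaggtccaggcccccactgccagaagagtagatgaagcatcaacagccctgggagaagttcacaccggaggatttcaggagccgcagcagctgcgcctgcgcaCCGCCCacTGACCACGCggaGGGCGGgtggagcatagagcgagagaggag
Gstm1: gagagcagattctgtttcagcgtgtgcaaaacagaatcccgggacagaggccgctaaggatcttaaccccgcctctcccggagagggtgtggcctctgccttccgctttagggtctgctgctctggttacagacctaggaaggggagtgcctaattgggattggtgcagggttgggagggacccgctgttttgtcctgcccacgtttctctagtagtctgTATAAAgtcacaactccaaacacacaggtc
Gstm2: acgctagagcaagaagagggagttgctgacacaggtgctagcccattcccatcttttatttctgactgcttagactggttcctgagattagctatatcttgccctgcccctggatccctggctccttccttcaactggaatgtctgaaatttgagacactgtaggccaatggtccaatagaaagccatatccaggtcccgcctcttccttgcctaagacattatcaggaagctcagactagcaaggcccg
Gstm3: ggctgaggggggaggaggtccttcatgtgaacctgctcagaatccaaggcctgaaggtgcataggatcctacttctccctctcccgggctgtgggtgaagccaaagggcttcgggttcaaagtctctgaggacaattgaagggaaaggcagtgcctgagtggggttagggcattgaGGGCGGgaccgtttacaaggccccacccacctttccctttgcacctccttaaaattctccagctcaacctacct

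In the Gstm5 window the core read TGACCACGC at positions -42 to -34, counted back from the start, and the AP-1 letters stood at -176 to -170. It also held a GC box on each strand, at -50 to -45 and at -30 to -25, and none of these matches overlap. The Gstm1 window shown had TATA letters at -30 to -25, that of Gstm3 a GC box at -74 to -69, and that of Gstm2 none of the 4 motifs. Among the 14 windows of the 9 genes, those of 2 genes held the core, Gstm5 and Mgst1, and those of 2 genes the AP-1 letters, Gstm5 and Gstp1. Over all 32851 RefSeq promoter windows of the same length, 10.2% held the core, 4.46% the AP-1 letters, 12.4% the TATA letters and 32.7% the GC box. A match of letters is not a measured binding site.

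Gstm5 read high in every tTA heart and low in every other heart at 2 of its 4 probe sets. At 100629_at the FVBN control arrays had normalized intensities of 155.7 and 133.2. FVBN + Doxy arrays 8337, 8338, 8340 and 8341 read 112.7, 126.4, 116.8 and 108.1. The 8 tTA arrays ran from 366 on array 7292, over a median of 675, to 980 on array 9322, and the 5 tTA + Doxy arrays 7399, 7424, 7485, 7486 and 7488 read 172.0, 149.2, 199.1, 174.0 and 185.0. The lowest tTA array was thus above the highest array of each other group, tTA + Doxy overlapped FVBN control at its lower end, and FVBN + Doxy lay below both. On the log2 scale the tTA mean was 9.24 ± 0.52 (SD, n = 8) and that with Doxy 7.45 ± 0.15 (n = 5), against 7.17 ± 0.16 (n = 2) for FVBN control and 6.86 ± 0.096 (n = 4) for FVBN + Doxy. The tTA group also had the widest spread of the 4.

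As a description, the 100629_at level was 4.20-fold higher in tTA than in FVBN control (log2 difference 2.07 ± 0.29 SE), which ranked 1 from the top among the 7453 probe sets tested. With Doxy the tTA level was 3.45-fold lower than without it (-1.79 ± 0.21), which ranked 1 from the bottom. Under Doxy the tTA arrays still lay above FVBN + Doxy by 0.60 ± 0.24, with no overlap between the arrays. In FVBN hearts the Doxy difference was -0.31 ± 0.32 (95% interval -0.98 to 0.36). The difference of the 2 Doxy effects, which contains it and was used in the choice, was -1.47 ± 0.38, so both are given as a description with no p. Later counts of calls sort them by the same threshold, which supports nothing about Gstm5.

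**Figure D1:**
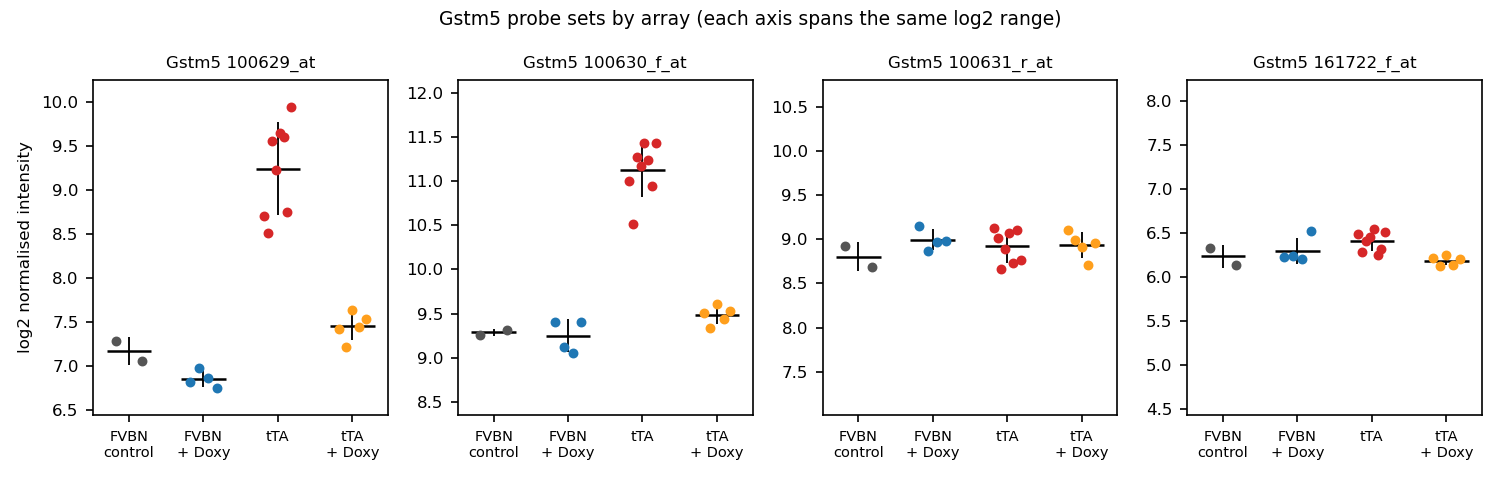
Log2 normalized intensity of the 4 Gstm5 probe sets by group, 1 point per array, with horizontal lines at group means and vertical lines of 1 SD; all panels span the same log2 range. At 100629_at and 100630_f_at the tTA arrays, with means of 9.24 and 11.13, lie above every array of the other groups.

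The probe set 100630_f_at also read highest on the tTA arrays. An _f suffix marks a probe set whose probes may bind several members of a gene family. FVBN control read 612.6 and 636.4, and FVBN + Doxy read 679.3, 558.8, 533.1 and 679.3. The tTA arrays ran from 1467 on array 7292, over a median of 2359, to 2778 on arrays 7310 and 9322. The tTA + Doxy arrays read 727.2, 648.0, 778.9, 691.4 and 739.3. No tTA array overlapped another group, and tTA + Doxy overlapped FVBN + Doxy but lay above both FVBN control arrays. The level in tTA was 3.59-fold that of FVBN control (1.84 ± 0.17, rank 2 from the top), and 3.13-fold that of tTA + Doxy (Doxy difference -1.65 ± 0.12, rank 2 from the bottom). The remaining gap under Doxy was 0.23 ± 0.14, and the Doxy difference in FVBN hearts was -0.04 ± 0.19 (95% interval -0.43 to 0.36). The interaction was -1.61 ± 0.22.

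The other probe sets linked to Gstm5 gave differences of at most 0.29 in size in the 5 comparisons. At 100631_r_at, whose _r suffix marks probes designed under relaxed rules, FVBN control read 485.2 and 411.8, FVBN + Doxy read 570.0, 467.4, 503.3 and 503.7, the tTA arrays ran from 405 to 562 with a median of 496, and tTA + Doxy from 418 to 553. All 4 groups overlapped, with differences of 0.12 ± 0.12 for tTA against FVBN control (95% interval -0.13 to 0.36) and 0.01 ± 0.08 for Doxy in tTA (-0.16 to 0.19). At 161722_f_at FVBN control read 80.3 and 70.5, FVBN + Doxy 74.9, 75.4, 73.4 and 91.6, tTA 76.1 to 93.2 with a median of 86.2, and tTA + Doxy 69.7 to 75.8. There the differences had the same signs as at the first pair in a smaller size: tTA was 0.17 ± 0.08 above FVBN control with overlap, with 8 of 8 arrays above the control mean, and Doxy in tTA gave -0.22 ± 0.06 with none (95% interval -0.34 to -0.10, rank 18 from the bottom). The interaction was -0.29 ± 0.11, rank 76 from the bottom, while tTA + Doxy against FVBN + Doxy was -0.11 ± 0.07, the opposite sign to the first pair. At both probe sets the interval for tTA against FVBN control ended at or below 0.36. Which transcripts each set detects was not tested, and the files hold no probe sequences.

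**Figure D2:**
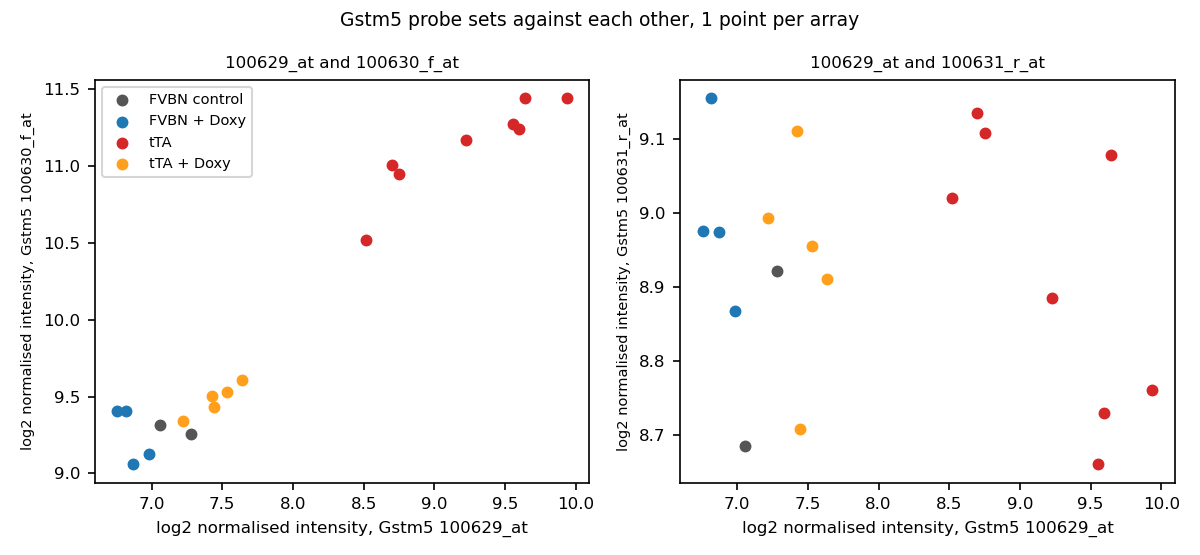
Log2 normalized intensity of 100630_f_at (left) and 100631_r_at (right) against 100629_at, 1 point per array, coloured by group. On the left the tTA arrays stand apart at the upper right (r = 0.978 over 19 arrays), and on the right they spread along the x axis with no upward trend (r = -0.208).

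Across arrays the first pair moved together. Over the 19 arrays 100630_f_at correlated with 100629_at at Pearson r of 0.978, with group means taken off at 0.806, and over the 8 tTA arrays alone at 0.913. For 161722_f_at the values were 0.60, 0.302 and 0.407, and for 100631_r_at -0.208, -0.536 and -0.692. These are descriptions over arrays that share normalization and, within a gene, sequence. Within the tTA arrays the mu-class probe sets other than those of Gstm5 and Gstm6 had negative r with 100629_at, from -0.868 for Gstm2 161357_r_at to -0.521 for Gstm1 161633_r_at, over 6 probe sets of 3 genes.

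None of the tested probe sets of the other mu-class genes passed the test in any comparison, where at most 5.89% of all probe sets passed. Here and below a change was called where limma's adjusted p, corrected over all 7453 probe sets, was below 0.05. Gstm1, whose enzyme conjugates many electrophiles, read 1804.6 and 1644.4 in FVBN control at 93543_f_at, 1502 to 1637 in FVBN + Doxy, 1326 to 1719 in tTA with a median of 1504, and 1395 to 1603 in tTA + Doxy. The tTA arrays overlapped the controls, and the difference was -0.21 ± 0.07 (limma adjusted p = 0.134). All 8 of 8 tTA arrays lay below the control mean, a count not made over all probe sets. The difference passed under median scaling and without further normalization, where the lowest limma adjusted p was 0.00403, and without tTA array 7288 (limma adjusted p = 0.0462). Gstm1 161633_r_at gave 0.05 ± 0.07 (limma adjusted p = 0.780).

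Gstm2 at 93009_at read lower in tTA than in FVBN control, without passing the test. At 93009_at FVBN control read 328.9 and 371.0, FVBN + Doxy 287 to 321, tTA 249 to 329 with a median of 282, and tTA + Doxy 296 to 386. The tTA difference was -0.29 ± 0.10 (limma adjusted p = 0.113), the arrays just not overlapping, and Doxy in tTA gave 0.22 ± 0.07 (limma adjusted p = 0.366, higher in 5 of 5 arrays). The interaction was 0.43 ± 0.13 (limma adjusted p = 0.237). Its second probe set, 161357_r_at, gave 0.03 ± 0.12 and -0.05 ± 0.09 for the tTA and the Doxy difference. For Gstm3 the tTA differences were -0.11 ± 0.07 and 0.06 ± 0.06, and for Gstm6 104637_at -0.05 ± 0.06. Gstm6 104636_at sat at the floor of the scale, an intensity of 14.4, on 8 of 19 arrays.

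**Figure D3:**
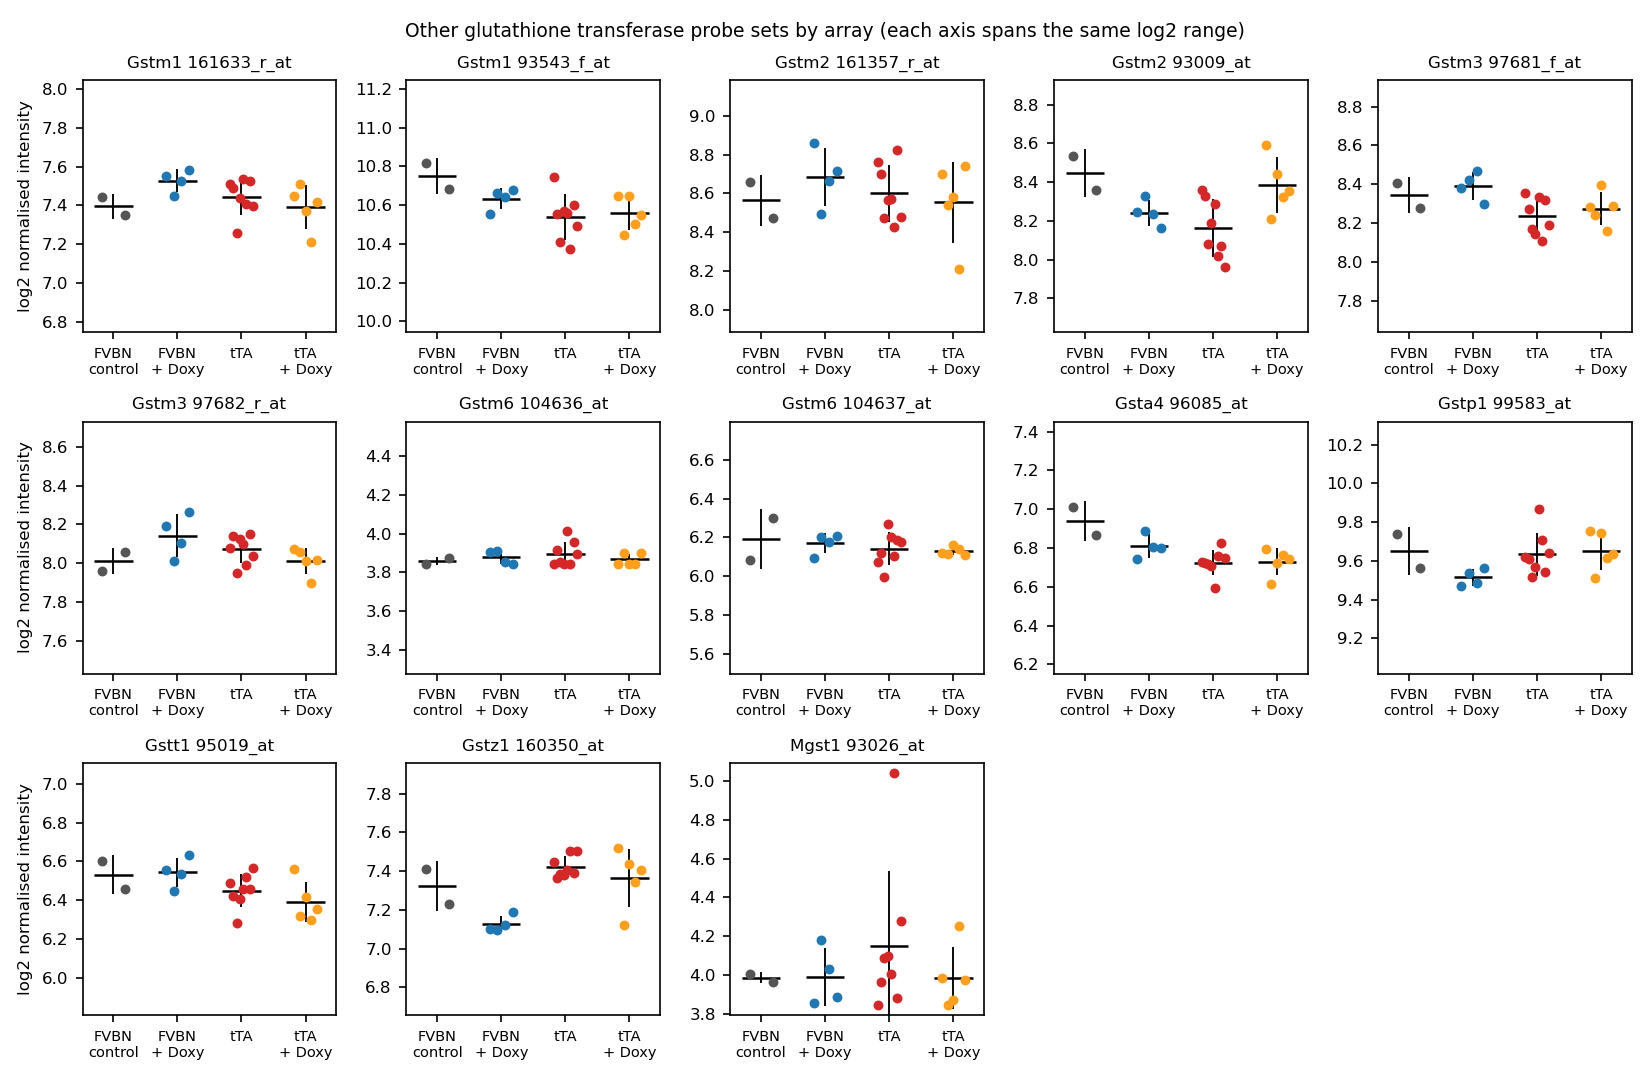
Log2 normalized intensity of the 13 probe sets of the other 9 genes by group, 1 point per array, with group means and 1 SD; all panels span the same log2 range. The groups overlap at most of them, as at Gstm1 93543_f_at with means of 10.75 in FVBN control and 10.54 in tTA, and Mgst1 has 1 high tTA array.

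Outside the mu class, Gsta4 fell in tTA against FVBN control, and Gstz1 rose between the Doxy groups, where the called share of all probe sets was 5.89%. Gsta4, whose enzyme is known for conjugating 4-hydroxynonenal, a product of lipid peroxidation, read 129.1 and 116.7 in FVBN control, 107 to 119 in FVBN + Doxy, 96.6 to 113.4 in tTA with a median of 106, and 98.1 to 111.1 in tTA + Doxy. All tTA arrays lay below both controls, and Gsta4 fell by 0.21 ± 0.06 (limma adjusted p = 0.0472), a fold of 1.16. How many of all probe sets separate from the controls in this way was not counted, so the separation marks nothing particular to Gsta4. The call was lost in 14 of 19 fits that left out 1 array (limma adjusted p from 0.0507 to 0.598): 8177, 8182, 8340, 8341, 7288, 7292, 7294, 7308, 7310, 7311, 9322, 7485, 7486 or 7488. It was also lost with all probe sets tested (limma adjusted p = 0.0632) and with only the arrays compared (limma adjusted p = 0.098). For Doxy in tTA hearts the Gsta4 difference was near 0 (0.0042 ± 0.04, limma adjusted p = 0.99, 95% interval -0.08 to 0.09).

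Gstz1 encodes the zeta-class enzyme, an isomerase of tyrosine breakdown. It read 170.4 and 150.2 in FVBN control, 137.5, 136.7, 139.2 and 145.9 in FVBN + Doxy, 165.0 to 181.7 in tTA with a median of 169, and 183.6, 139.3, 173.2, 162.3 and 169.3 in tTA + Doxy. Between the Doxy groups it rose by 0.24 ± 0.06 (limma adjusted p = 0.0219), with 4 of 5 tTA + Doxy arrays above the FVBN + Doxy mean and array 7424 among the FVBN + Doxy arrays. The FVBN + Doxy arrays were the low group: they lay below both controls, by -0.19 ± 0.08 (limma adjusted p = 0.391). The share of all probe sets that separate in this way was not counted. The call was lost in 6 of 19 fits with 1 array left out, without 8337, 8338, 8340, 7399, 7485 or 7488 (limma adjusted p from 0.0509 to 0.0602). It was also lost for Gstz1 with all probe sets tested (limma adjusted p = 0.0586) and with only the arrays compared (limma adjusted p = 0.0545).

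Gstp1, the pi-class enzyme, and Gstt1, the theta-class enzyme, did not pass in any comparison, where at most 5.89% of all probe sets passed. For Gstp1 the FVBN control arrays read 756.7 and 854.1, FVBN + Doxy 710 to 757, tTA 731 to 933 and tTA + Doxy 729 to 865. Its differences were -0.02 ± 0.08 for tTA against FVBN control (95% interval -0.17 to 0.14) and 0.14 ± 0.06 between the Doxy groups (limma adjusted p = 0.221). Gstt1 read 88.0 and 97.2 in FVBN control, 87.3 to 99.3 in FVBN + Doxy, 77.8 to 94.6 in tTA and 78.8 to 94.3 in tTA + Doxy. Between the Doxy groups it was -0.15 ± 0.06 (limma adjusted p = 0.130), passing without array 7399 (limma adjusted p = 0.0475). Mgst1, the microsomal enzyme, lay between 14.4 and 19.4 on 18 arrays and at 32.9 on tTA array 7311.

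Calls were counted over the members. In tTA against FVBN control 3 of 15 tested member probe sets were called, against a background of 2.82% of all probe sets, and 1 of the 11 that are not Gstm5, namely Gsta4. In tTA + Doxy against FVBN + Doxy 1 of 15 was called (Gstz1), where the background was 5.89%. Doxy in FVBN hearts gave 0 of 15, against 0.0403%, with 881 of all probe sets at an unadjusted p below 0.05 and 1 of the 11 (Gstz1) at that level. Doxy in tTA hearts gave 2 of 15, both Gstm5, against 0.0671%, and the interaction 1, Gstm5 100630_f_at, against 0.0134%. The rule used Gstm5 in these contrasts, so its counts support nothing. The median differences of the 11 were -0.05, -0.08, -0.02, -0.01 and 0.01 in the 5 comparisons, against 0.01, -0.01, 0.01, -0.01 and -0.01 over all tested probe sets.

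**Figure D4:**
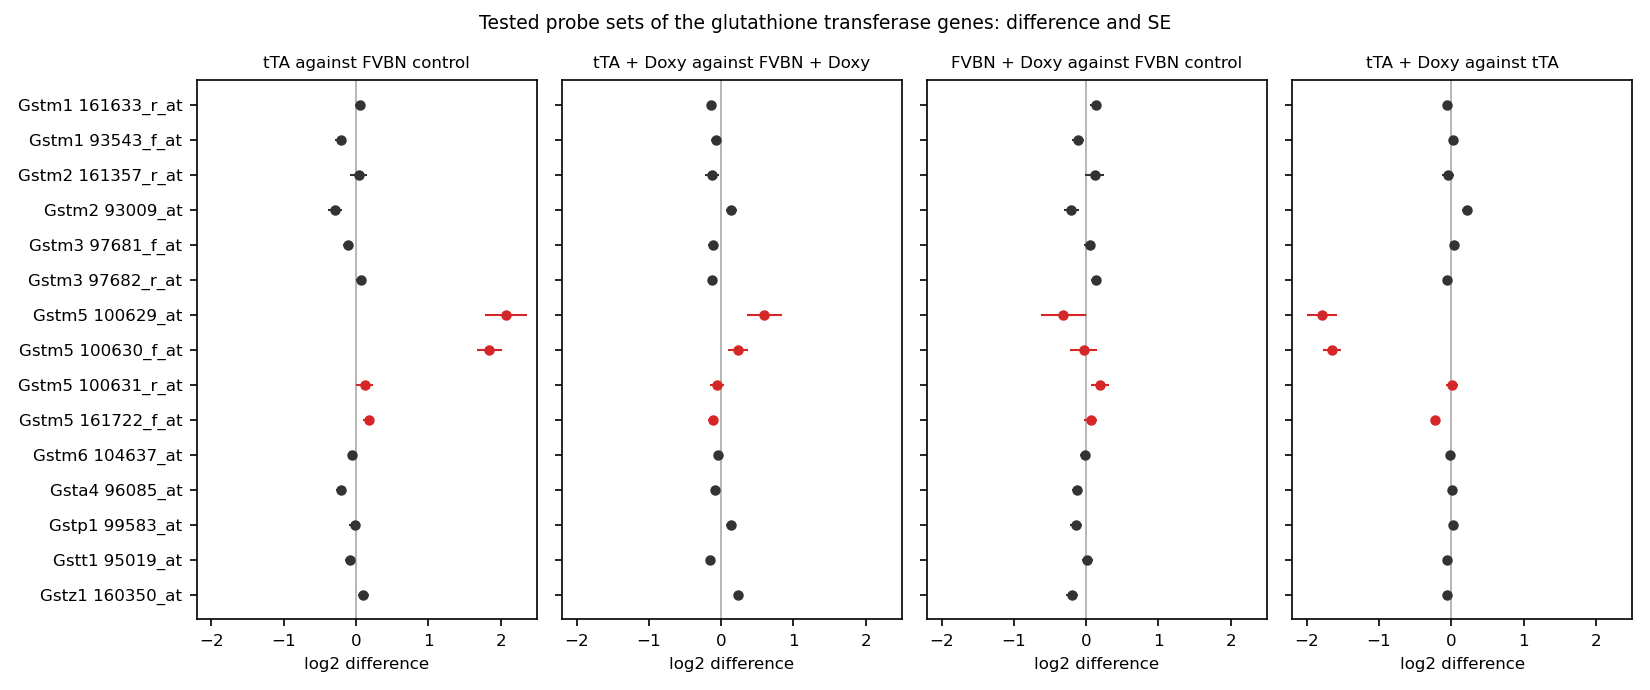
Log2 differences of the 15 tested probe sets (points) with 1 SE (bars) in 4 comparisons, Gstm5 in red. The pair 100629_at and 100630_f_at lies at 2.07 and 1.84 in tTA against FVBN control and at -1.79 and -1.65 for Doxy in tTA hearts, and the 11 probe sets of other genes lie within -0.29 to 0.10 in the first.

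Among other genes of glutathione metabolism, called genes were found in both directions in tTA against FVBN control, where 2.82% of all probe sets were called. Of the 6 other transferase genes tested, of 10 with a probe set, 1 fell in tTA against FVBN control: Gstk1, the mitochondrial kappa-class enzyme (-0.48 ± 0.09, limma adjusted p = 0.00363), a call lost without control array 8177 (limma adjusted p = 0.175). Gsta2, Gsto1, Gstt2, Mgst3 and Ltc4s did not pass. Of 13 genes of glutathione synthesis, breakdown and recycling, 1 rose, Hagh, which hydrolyses S-lactoylglutathione (0.42 ± 0.09, limma adjusted p = 0.0157), and 1 fell, Idh1, a source of NADPH (-0.33 ± 0.09, limma adjusted p = 0.0373). Hagh was also higher under Doxy (0.39 ± 0.08, limma adjusted p = 0.00515). Of 4 peroxidases and glutaredoxins, the extracellular peroxidase Gpx3 rose (0.47 ± 0.10, limma adjusted p = 0.00942), and of 3 transporters that export conjugates none passed. The tTA calls of Hagh and Gpx3 were lost without either control array, 8177 or 8182 (limma adjusted p from 0.123 to 0.185). That of Idh1 was lost without 8177, 7288, 7294, 7308, 7310 or 9310 (limma adjusted p from 0.0507 to 0.635). With all probe sets tested the Hagh and Idh1 calls were lost (limma adjusted p = 0.0595 and 0.103), and that of Gpx3 with median scaling (limma adjusted p = 0.0565). The Idh1 call was also lost with array weights (limma adjusted p = 0.0517) and with only the arrays compared (limma adjusted p = 0.0943).

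Of 20 tested Nrf2 regulators and target genes, 0 rose in tTA against FVBN control, where 0.993% of all probe sets were called higher, and 1 fell, namely Txnrd1, thioredoxin reductase (-0.30 ± 0.07, limma adjusted p = 0.0193), with a list median of -0.04 against 0.01 over all probe sets. Nqo1 was at -0.04 ± 0.13 and Hmox1 at 0.01 ± 0.07. Under Doxy, where 5.89% of all probe sets were called, 2 of the 20 were higher in tTA, the small Maf gene Mafk (0.17 ± 0.05, limma adjusted p = 0.0385) and Taldo1 of the pentose phosphate pathway (0.30 ± 0.05, limma adjusted p = 0.00217). Of 10 other phase I and phase II enzymes, the carboxylesterase gene Ces1d fell, by 1.10 ± 0.17 (limma adjusted p = 0.00109) and, between the Doxy groups, by 0.98 ± 0.14 (limma adjusted p = 0.00069). Between the Doxy groups Cyp2b10 also fell, by 0.22 ± 0.05 (limma adjusted p = 0.0107), and Cyp4b1 by 0.23 ± 0.06 (limma adjusted p = 0.0278), while the interactions of these genes did not pass (limma adjusted p = 0.297 and 0.246). Without control array 8177 the tTA calls of Txnrd1 and Ces1d were lost (limma adjusted p = 0.405 and 0.0753), the former also without 8182 (0.0558 by the same fit) and with all probe sets tested (0.0514). The Mafk call was lost in 8 and the Cyp4b1 call in 5 of 19 fits with 1 array left out, without 8337, 8341, 7424, 7486 or 7488 for both and for Mafk also without 8340, 7399 or 7485 (limma adjusted p from 0.0506 to 0.113). The Mafk call was also lost with all probe sets (limma adjusted p = 0.0585) and with the ratio of the beta-actin control probe sets as a covariate (limma adjusted p = 0.0655). That of Cyp4b1 was lost with median scaling, no further normalization and all probe sets (limma adjusted p = 0.0765, 0.0606 and 0.0678). None of these lists had a called gene for Doxy in tTA hearts, for Doxy in FVBN hearts or in the interaction. Of all probe sets only 0.0671%, 0.0403% and 0.0134% were called there, so this says nothing particular to the lists.

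**Figure D5:**
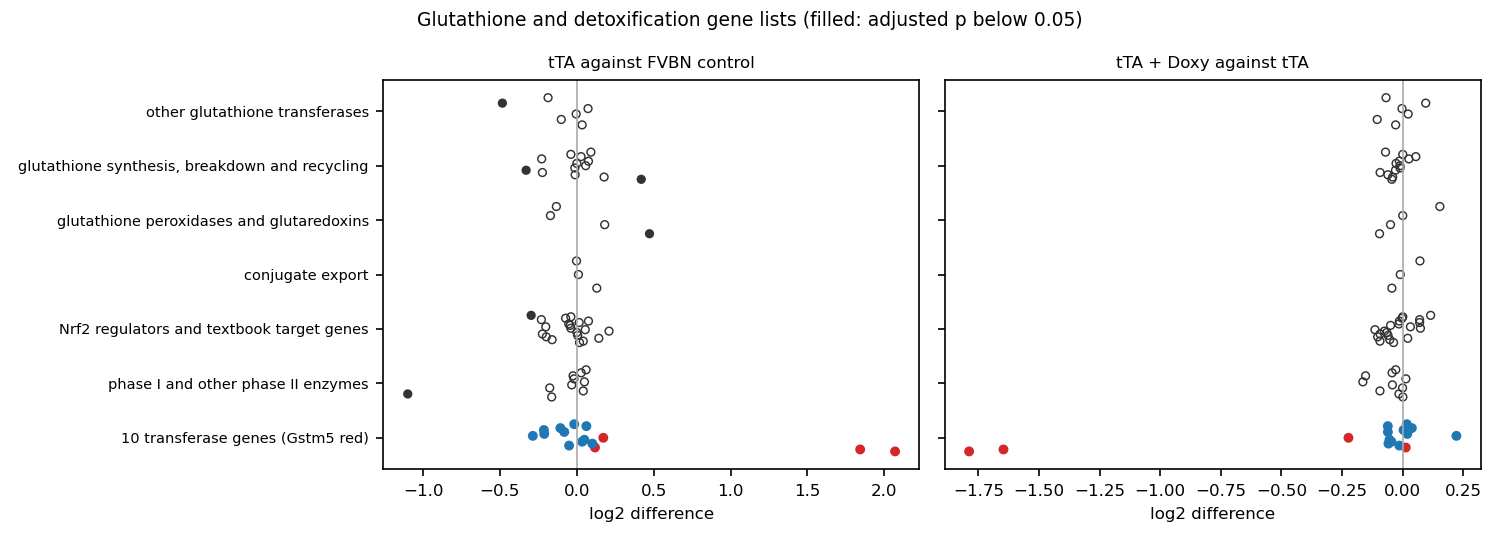
Log2 differences of the tested genes of each list, 1 point per gene, for tTA against FVBN control (left) and for Doxy in tTA hearts (right); filled list points passed at adjusted p below 0.05, and the 15 member probe sets are below, Gstm5 in red. On the left Gstk1 at -0.48, Gpx3 at 0.47 and Ces1d at -1.10 are among the filled points. On the right, where 0.0671% of all probe sets were called, no list point is filled.

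None of the tested genes that flank the cluster passed in tTA against FVBN control, where 2.82% of all probe sets passed. Along chromosome 3 the order runs Ahcyl1, Csf1, Eps8l3, Gstm5, Gstm7, Gstm6, Gstm3, Gstm2, Gstm1, Gstm4, Ampd2, and on to Gnai3. Of the flanking genes tested, Ahcyl1 was -0.11 ± 0.06, Csf1 0.01 ± 0.05 and Gnai3 0.06 ± 0.06 in tTA against FVBN control, and for Doxy in tTA they were at 0.0016, -0.05 and -0.05, with none passing. Csf1, a macrophage growth factor gene, was lower between the Doxy groups (-0.18 ± 0.05, limma adjusted p = 0.0189).

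Among 3330 other probe sets of 1 gene with at least median spread, those most like 100629_at over the 19 arrays were Adgrg1 at r of 0.849, Ctf1 at 0.846, Wbp2 at 0.817, Hbegf at 0.811 and Tpm2 at 0.795. The most opposite were Chchd7 at -0.884, Slc25a5 at -0.882, G0s2 at -0.871, Mt1 at -0.867 and Ccl9 at -0.853. Adgrg1, an adhesion receptor gene, had log2 means of 6.64, 6.68, 7.32 and 6.73 in FVBN control, FVBN + Doxy, tTA and tTA + Doxy. In the same order Ctf1 had 6.66, 6.54, 6.86 and 6.67, and Hbegf 6.37, 6.35, 6.54 and 6.43. Wbp2 had 9.03, 8.99, 9.21 and 9.14. Tpm2 had 6.53, 6.67, 8.25 and 7.96 and so stayed high with Doxy, despite its high r. G0s2, which encodes an inhibitor of adipose triglyceride lipase, had 7.40, 7.50, 7.13 and 7.38. With group means taken off, r was 0.650 for Adgrg1 and -0.729 for G0s2, while for Mt1, a metallothionein gene, it was -0.166.

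The arrays were checked for cell makeup and RNA. All 8 cardiomyocyte markers were bright and none was called in any comparison, with summed levels from 29731 to 33807 over all arrays. In bulk tissue fewer cells of a type and less RNA per cell cannot be told apart. Summed smooth muscle markers were lower in tTA (462 to 585, 5 of 6 tested) than in FVBN control (732 to 781), where 1 of the 5, Acta2, was called lower and the list median was -0.08. Summed skeletal muscle markers were higher in tTA (2106 to 3951, 4 of 7 tested) than in FVBN control (1358 to 1395). Only 1 of the 4, Acta1, was called higher, and the list median was 0.03. Ckm is also on the cardiomyocyte list, and Myh1, Tnnt3 and Tnni2 were too dim to be tested. The sum therefore does not show skeletal muscle cells. Summed endothelial markers were at 887 to 951 in tTA against 1003 to 1026, with 1 of 6, Emcn, called lower. The 2 erythroid markers summed to 2539 to 4697 in tTA and 4681 to 5128 in FVBN control. The part of cell makeup in the transferase values was not tested. Summed hepatocyte markers (1 of 5 tested) lay between 175 and 215 on 18 arrays and at 276 on tTA array 7311, with Alb at 106 there. Alb, Ttr, Fgb and Tat were too dim to be tested. Beta-actin control probe sets at the 3′ and 5′ ends of the transcript differed, in log2 (3′ over 5′), by 0.537 ± 0.016 (SD, n = 2), 0.498 ± 0.084 (n = 4), 0.321 ± 0.11 (n = 8) and 0.353 ± 0.082 (n = 5) in FVBN control, FVBN + Doxy, tTA and tTA + Doxy. With that ratio as a covariate Gstm5 was 2.40 ± 0.34 higher in tTA at 100629_at and 2.04 ± 0.20 at 100630_f_at, and Doxy gave -1.84 ± 0.20 and -1.68 ± 0.12, given as values with no test. The calls of Gsta4, Gstk1, Hagh, Idh1, Gpx3 and Txnrd1 in tTA against FVBN control were lost with it (limma adjusted p from 0.115 to 0.311).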

How the data were processed

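The deposited table holds intensity values on a linear scale for 12488 probe sets on 20 arrays; how the authors computed and normalized them is not given in the sources used here. Array medians ran from 60.7 to 62.5, and all 249760 values end in the digit 3, as 1 added constant would leave; such a constant, of unknown size, would compress folds of dim probe sets. Values of all 12488 probe sets on the 19 arrays with a group were quantile normalized, floored at 14.4 (10th percentile) and logged to base 2. The 66 control probe sets were then left out. From these log2 values the brightest 60%, 7453 probe sets, were tested with limma 3.58.1 in R 4.3.3: 4 group means, eBayes with trend and robust options, Benjamini-Hochberg adjustment within each comparison, called at adjusted p below 0.05. The number of arrays limits the precision.

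Probe sets were named from the platform annotation: 10833 had 1 gene, 396 several, 1193 none, and 10817 matched the RefSeq gene table. Genes outside the members are named by rule: up to 4 called genes per list and comparison, all other transferases, and the 5 probe sets of highest and of lowest r with the Gstm5 probe set of largest SD. Flanking genes, Nqo1 and Hmox1 were added after their values were seen. Members and lists were chosen with earlier results of these data known. The fit was tested on simulated data. The array with no group entered no comparison. Plots used Python 3.11.15 and matplotlib 3.10.9.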

Additional observations from a re-analysis of the deposited data

Results flagged for a closer look

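A single array stood far from the others in 2 of 51 combinations of probe set and group examined, where chance flags about 1 in 20. At Gstm5 161722_f_at, FVBN + Doxy array 8341 read 91.6 against 75.4 for the next, a gap of 0.878 of the group's range (critical value 0.829). At Mgst1, tTA array 7311 read 32.9 against 19.4 for the next, a gap of 0.638 of the range (critical value 0.526). On that same array the summed hepatocyte markers, of which 1 of 5 was bright enough to be tested, were 276 against 215 on the next highest array. Alb, among the dim ones, read 106. The part of this in the Mgst1 value, itself from a dim probe set, was not tested.

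The Doxy effect in tTA hearts minus that in FVBN hearts was -1.61 for Gstm5 100630_f_at, a value used to choose the gene and given with no p.

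The array titled Cardiac tTA expression has no group. Its deposited intensities lay above both FVBN control arrays at 8 of 17 probe sets, below both at 3 and between them at the others. Those below were Gstm1 93543_f_at at 1714, Gstm2 93009_at at 328 and Gstp1 at 732. The same shares over all probe sets were not counted, so these counts mark nothing particular to the transferases. The higher intensities were 194 for Gstm1 161633_r_at, 441 for Gstm2 161357_r_at and 269 for Gstm3 97682_r_at. For Gstm5 they were 685 at 100630_f_at, 539 at 100631_r_at and 80.4 at 161722_f_at. Gstt1 read 98.4 and Mgst1 19.3.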

How the results depend on the processing

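The number of called members in tTA + Doxy against FVBN + Doxy (1) fell to 0 with all probe sets tested and ranged from 0 to 1 with each array left out, being 0 without 8337, 8338, 8340, 7485 or 7488. It was 1 in the fit of only the arrays compared, where Gstz1 was lost and Gstm5 100629_at passed, and without 7399, where Gstz1 was lost and Gstt1 passed. In the interaction (1) it was 0 with all probe sets and 0 to 1 with each array left out, being 0 without 8177 or 8182. With all probe sets the adjustment is over more tests, and the fit's estimate of spread also draws on the dim probe sets. Which of these lost the calls was not tested. Gstm5 was chosen by its values in these comparisons, so a call of it, as in the interaction, supports nothing. In tTA against FVBN control (3), FVBN + Doxy against FVBN control (0) and tTA + Doxy against tTA (2) the counts stayed within 1.5 times under the settings run. The 59 member differences judged against the threshold included those of Gstm5 for Doxy in FVBN hearts, which were only sorted by it and are not read as a test. Of their 1753 alternative values, 1719 stayed on their side of the threshold, some changing sign with a move below the spread between arrays. Another 25 lost a call (Gsta4 and Gstz1), 4 gained one, and 5 changed sign with a move of at least the spread. The other 16 Gstm5 differences were judged by size alone, and their 472 alternative values moved by less than the spread between arrays. No called value reversed. Gstm5 in tTA against FVBN control ran from 1.96 to 2.40 at 100629_at and from 1.75 to 2.04 at 100630_f_at over the settings and left-out arrays, and without tTA arrays 9310 and 9322 was 2.04 and 1.82. With the FVBN control group at 2 arrays, leaving out 1 assumes that the other varies like the remaining groups. The interaction needs all groups, so no fit of only the compared arrays was run for it. No paired analysis was possible because the groups share no replicate numbers.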

Other observations

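At Gstm5 100629_at the array with no group had a deposited intensity of 143. On the same deposited scale the FVBN control arrays ran from 133 to 156, FVBN + Doxy from 108 to 127, tTA from 358 to 953 and tTA + Doxy from 148 to 200. At 100630_f_at it read 685, with FVBN control at 645 to 647, FVBN + Doxy at 524 to 661, tTA at 1417 to 2776 and tTA + Doxy at 638 to 787.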
